A study of Homo sapiens with 18 samples.

Results

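The chromatin map described here is that of H2087-LCC human lung adenocarcinoma cells treated with the cytokine TGF-β1, given in the labels as 100 nM for 4 days and called TGFb below. Such a dose would be far above those commonly used, and nothing in the files could verify it. It was formed by the peak summits of 3 histone marks in that condition, H3K27ac, H3K4me1 and H3K4me3, which are 3 of the 13 peak lists and 3 of the 18 samples of the study. The 3 lists held 240850 of the 947675 deposited summits: 68118 for H3K27ac, 143843 for H3K4me1 and 28889 for H3K4me3. Each mark was measured by chromatin immunoprecipitation and sequencing in 1 library, so no value below has a replicate and no test was made. The medium contained serum, hydrocortisone, insulin and epidermal growth factor. On chromosomes 1 to 22 and X, which were used, the lists held 68069, 143813 and 28850 summits. Positions are those of the hg19 genome build.

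Acetylation of lysine 27 on histone H3 (H3K27ac) is found at active promoters and active enhancers. Monomethylation of lysine 4 (H3K4me1) is typical of enhancers, active or not, and of the flanks of promoters, whereas trimethylation of the same lysine (H3K4me3) is concentrated at promoters. Enhancer methylation and promoter methylation of lysine 4 are alternative states of the same residue, so the position of each mark relative to the other describes the layout of a regulatory element. TGF-β1 acts through SMAD transcription factors, which bind both kinds of element, and it can drive epithelial lung cancer cells towards a mesenchymal state. No hg19 annotation was used here, so loci are given by position, without gene names, and neither the cell type nor the response to TGF-β1 was checked against marker genes.

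Each summit carries the authors' score, a −log10 significance (p or q), which ranks summits within its own list. The H3K27ac scores had a median of 20.9 (quartiles 7.04 and 96.3) and a maximum of 602.563. H3K4me1 scores were low and narrow, with a median of 11.1 (5.51 and 23.9) and a maximum of 200.728. H3K4me3 scores were spread most widely, with a median of 146.8 (15.3 and 511) and a maximum of 731.369. Read depth is unknown, and only 1 base stands for each peak, however wide. Neighbouring summits of the same mark were a median of 10118 bp apart for H3K27ac, 5471 bp for H3K4me1 and 36113 bp for H3K4me3. Marks are called together below when their summits lay within 1 kb. In bulk libraries, marks on the same chromosome copy cannot be told apart from marks on separate cells or alleles.

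H3K4me3, the promoter mark, seldom stood alone. Of its 28850 summits, 73.5% (Wilson 95% interval 73.0 to 74.0) had H3K27ac within 1 kb and 71.5% (71.0 to 72.0) had H3K4me1. Both marks accompanied 15892 summits, or 55.1%. H3K27ac alone accompanied 5313 (18.4%), H3K4me1 alone 4745 (16.4%), and neither accompanied 2900 (10.1%). The Wilson intervals here cover counting error over summits of single libraries only.

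The strength of H3K4me3 differed between these classes. The median H3K4me3 score was 504 with H3K27ac only, 277 with both marks, 34.1 with H3K4me1 only and 16.3 with neither. All H3K4me3 summits with H3K27ac had a median of 359 (quartiles 26.1 and 538), against 24.6 (8.53 and 113) for those without it. The quartile ranges of these 2 sets overlapped, and the acetylated set also held many weak summits. With each list reduced to its 28850 highest-scoring summits, the share of H3K4me3 summits with H3K27ac was 58.3%.

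**Figure D1:**
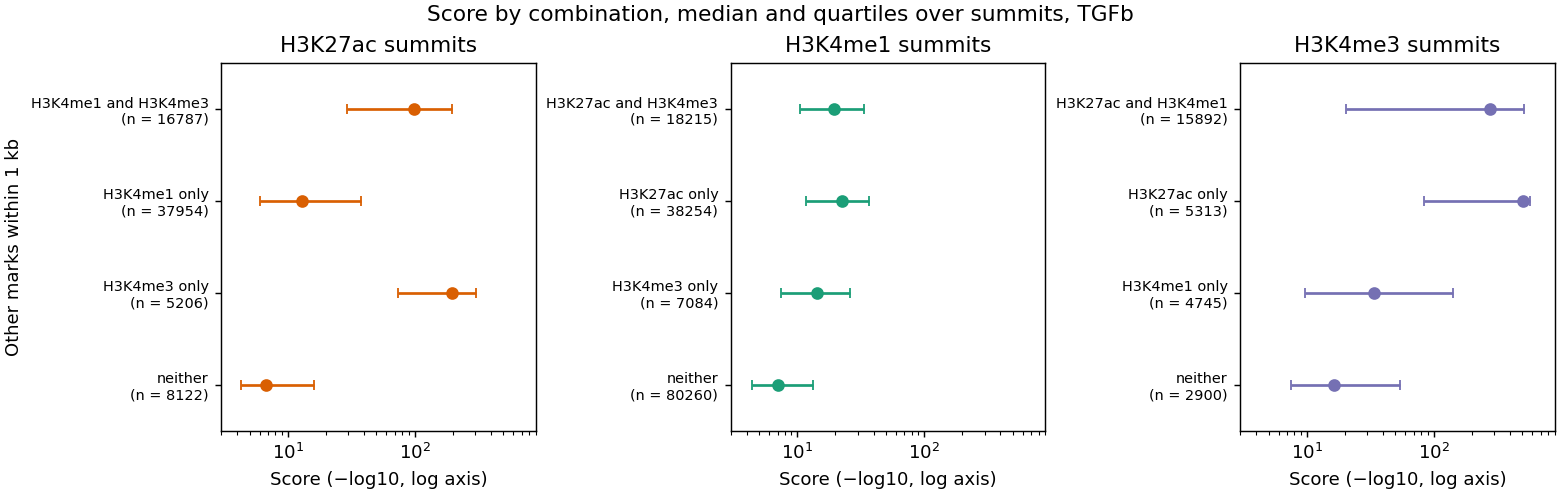
Score of each summit (−log10, log axis) by the other marks within 1 kb, shown as median (point) and quartiles (bar ends) over summits, with 1 panel per mark and the number of summits beside each class. H3K27ac and H3K4me3 were strongest where they lay together without H3K4me1, with medians of 199 and 504, and H3K4me1 was strongest with H3K27ac only, with a median of 22.4.

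The share of H3K4me3 summits with H3K27ac had the form of a step along H3K4me3 score. Summits were divided by score into 10 groups of about equal size, the deciles. In each of the 5 lowest deciles of H3K4me3 score, from 1.34 up to 147, between 57.2% and 60.5% of summits had H3K27ac within 1 kb. The share was 69.3% in the sixth decile, 90.3% in the seventh, 94.5% in the eighth, 95.3% in the ninth and 94.3% in the highest. The seventh decile begins at a score of 344. Distance fell earlier: from the lowest to the seventh decile the median distance from an H3K4me3 summit to the nearest H3K27ac summit was 626, 624, 582, 470, 346.5, 150 and 63 bp. It stayed between 55 and 60 bp in the 3 highest deciles.

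H3K4me1 near H3K4me3 followed another course. Its share within 1 kb was 72.1% in the lowest decile of H3K4me3 score, 84.0% in the sixth and 57.9% in the highest. The median distance to the nearest H3K4me1 summit was 525 bp in the lowest decile, 431.5 bp in the fifth and 919.5 bp in the highest. The strongest H3K4me3 summits thus had H3K27ac nearer and H3K4me1 farther away than the weakest ones. Across the 20637 H3K4me3 summits with H3K4me1 within 1 kb, Spearman's rho between the scores of the nearest pair was -0.28. Across the 21205 with H3K27ac it was 0.39. Both are descriptions over sites of the same libraries.

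**Figure D2:**
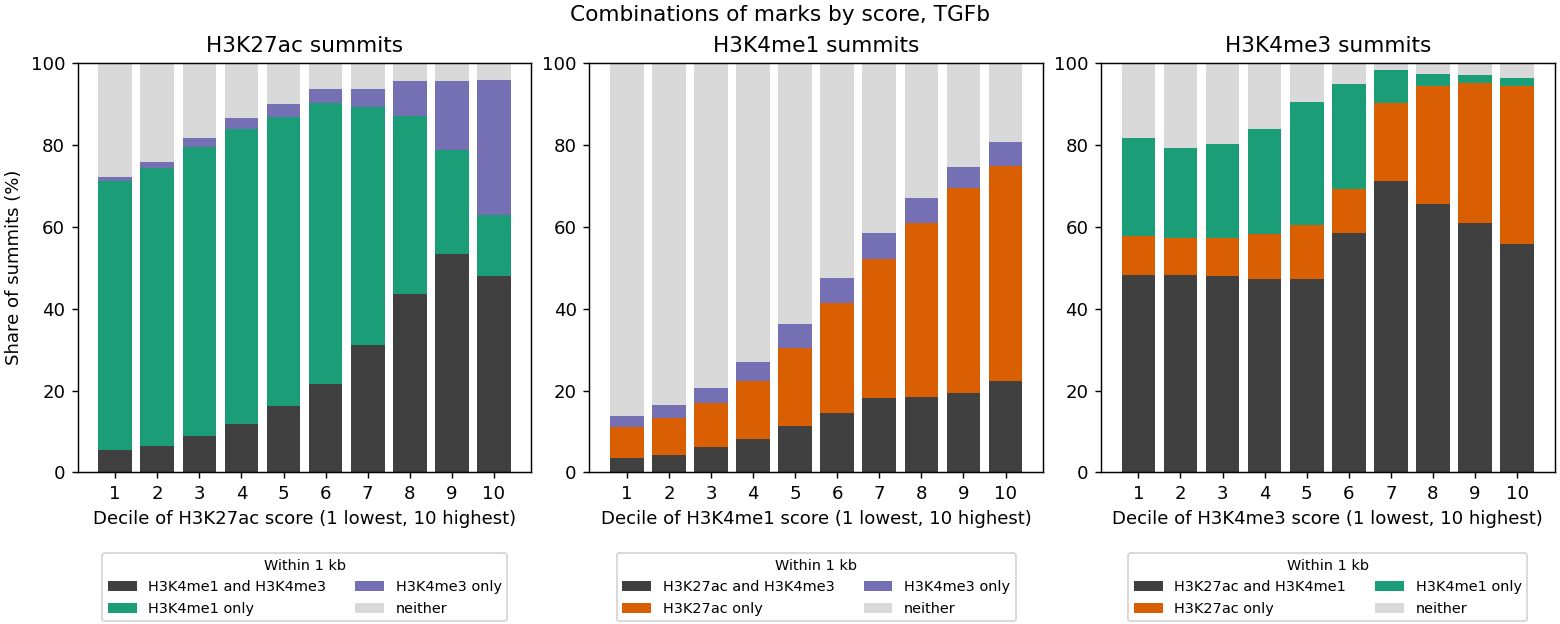
Share of summits (%) in each combination of marks within 1 kb, by decile of the summit's own score (1 lowest, 10 highest), with 1 panel per mark. The share of H3K27ac summits with H3K4me3 was 6.56% in the lowest decile and 80.9% in the highest, and the share of H3K4me1 summits with neither mark was 86.2% in the lowest and 19.2% in the highest.

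The positions of the marks around H3K4me3 were then counted in bins. Per 100 H3K4me3 summits, 32.0 H3K27ac summits lay in each 500 bp next to the centre, against 3.08 per 500 bp at 4 to 5 kb, a ratio of 10.4. H3K4me1 instead formed a pair of shoulders. It numbered 18.8 per 500 bp next to the centre, 25.8 between 500 and 1000 bp and 14.2 between 1000 and 1500 bp, against 5.95 at 4 to 5 kb. Around H3K27ac summits both H3K4 marks peaked at the centre, with 26.5 H3K4me1 and 13.6 H3K4me3 summits per 100 in each 500 bp next to it. At 4 to 5 kb the same counts were 6.82 and 1.305.

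**Figure D3:**
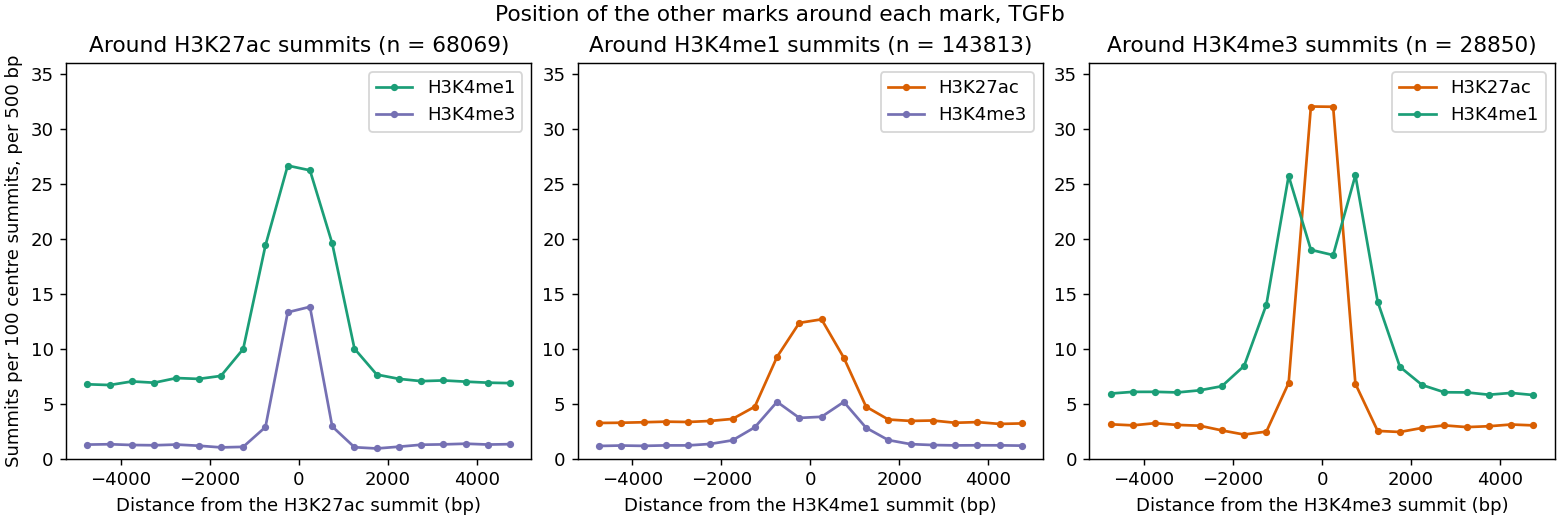
Summits of the other marks per 100 centre summits and per 500 bp (vertical axis) against distance from the centre summit in bp, for centres of each mark. Around H3K4me3, H3K27ac peaks at the centre at 32.0 per side while H3K4me1 dips to 18.8 there and rises to 25.8 on its shoulders.

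The dip was found in the third and highest quartiles of H3K4me3 score only, and was deepest in the highest. In the highest quartile of H3K4me3 score, from 511 upwards, 3.11 H3K4me1 summits per 100 lay in each 500 bp next to the centre. That is 0.473 times the 6.58 counted at 4 to 5 kb. In the third quartile the central count was 20.2, in the second 27.2 and in the lowest 24.5, each above its own level at 4 to 5 kb, which lay between 5.38 and 6.37. At 500 to 1000 bp the count was 37.2 in the highest quartile, 35.5 in the third, 15.9 in the second and 14.5 in the lowest. The second and lowest quartiles thus had a maximum at the centre. At a resolution of 100 bp with both sides summed, H3K4me1 in the highest quartile numbered 0.208 per 100 within 100 bp and was most frequent at 800 to 900 bp, at 17.5. In the lowest quartile it was instead most frequent within 100 bp, at 13.1. H3K27ac was most frequent within 100 bp in both, at 63.2 in the highest quartile and 22.9 in the lowest.

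**Figure D4:**
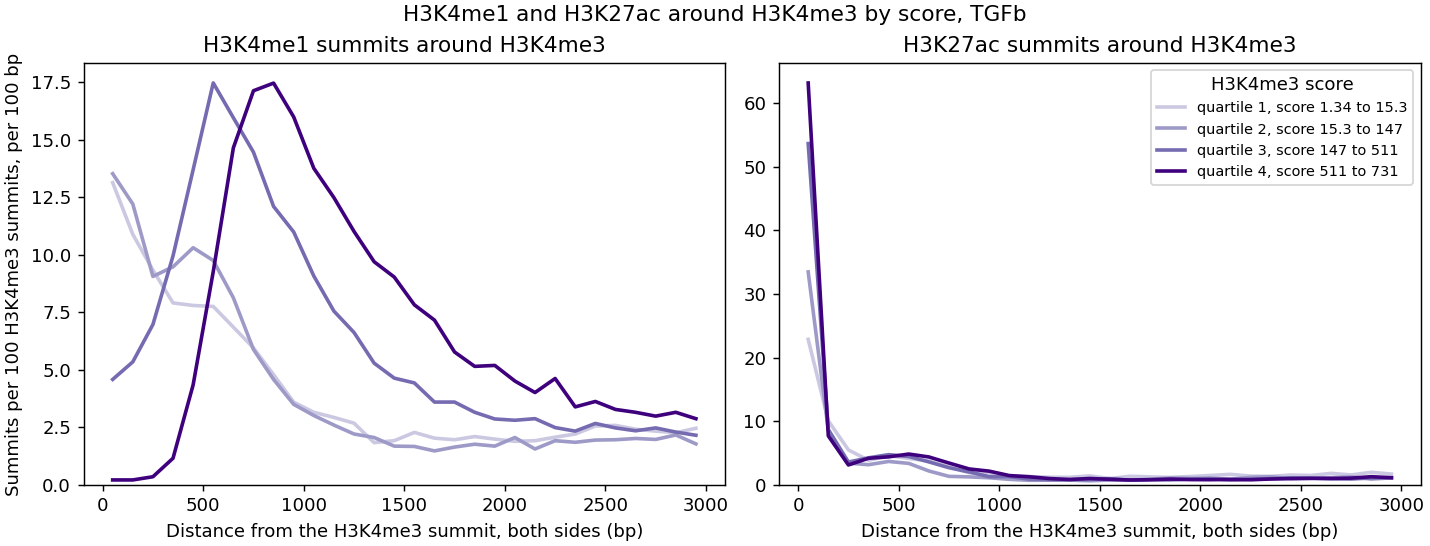
H3K4me1 (left) and H3K27ac (right) summits per 100 H3K4me3 summits and per 100 bp, both sides summed, against distance from the H3K4me3 summit in bp, with 1 line per quartile of H3K4me3 score. H3K4me1 in the highest quartile is near 0 at the centre and highest at 800 to 900 bp, whereas H3K27ac is highest within 100 bp in every quartile.

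H3K4me1 bracketed strong H3K4me3 summits. Within 2.5 kb, 13074 H3K4me3 summits (45.3%, 44.7 to 45.9) had H3K4me1 on both sides, 44.8% on 1 side and 9.87% on neither. In the 4 lowest deciles of H3K4me3 score the share with H3K4me1 on both sides was between 17.1% and 19.9%. It was 26.1% in the fifth decile, 47.8% in the sixth and 71.6% in the seventh, and between 77.6% and 78.2% in the 3 highest. The bracket, measured between the flanking H3K4me1 summits, had a median width of 1778 bp in the lowest decile, 1265 bp in the sixth, where it was smallest, and 2245 bp in the highest, with quartiles of 1780 and 2824 bp in the highest. This share depended on the weaker summits: with lists of equal length the share with both sides was 5.75%, and with scores of at least 10 it was 32.6%.

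Where all 3 marks met at an H3K4me3 summit, H3K27ac was usually the nearer partner. At 13593 of the 15892 such summits, 85.5% (85.0 to 86.1), the H3K27ac summit was nearer than the H3K4me1 summit. The median distance was 67 bp to H3K27ac and 559 bp to H3K4me1. Across all H3K4me3 summits the median distance to H3K27ac was 166 bp, 43.3% had it within 100 bp, and 174 had it at the same base. With lists of equal length that median was 525 bp. Among strong H3K4me3 summits with H3K4me1 on 1 side and an H3K27ac summit 100 to 1000 bp away, the H3K27ac summit lay on the side of H3K4me1 in 375 of 748 cases, 50.1% (46.6 to 53.7). The interval includes an even split between the sides.

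Strong H3K4me3 without nearby acetylation was rare. Of the 11540 summits in the 4 highest deciles of H3K4me3 score, 145 (1.26%, 1.07 to 1.48) had no H3K27ac within 10 kb, against 14.5% of all H3K4me3 summits. Of these 145, 137 (94.5%) had H3K4me1 within 1 kb, against 71.5% of all H3K4me3 summits. In the 4 highest deciles that share lay between 57.9% and 79.2%. The strongest, at chr7:73133734, had an H3K4me3 score of 669 and lay 13379 bp from the nearest H3K27ac summit and 700 bp from an H3K4me1 summit. The one farthest from acetylation among the 5 strongest was chr9:116638818, with a score of 588 and H3K27ac 201282 bp away. Both positions were picked after their values were seen.

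H3K27ac summits were mostly distal to H3K4me3. Of 68069, 32.3% (32.0 to 32.7) had H3K4me3 within 1 kb and 80.4% (80.1 to 80.7) had H3K4me1. H3K4me1 without H3K4me3, the arrangement usually read as an enhancer, was found at 37954 (55.8%). Both marks were found at 16787 (24.7%), H3K4me3 only at 5206 (7.65%) and neither at 8122 (11.9%). These shares depended on the summits kept. With lists of equal length only the H3K27ac and H3K4me1 lists were shortened, because the H3K4me3 list holds 28850 summits. Of the 28850 highest-scoring H3K27ac summits, 57.9% then had H3K4me3 and 27.5% had H3K4me1 without it. The share with neither mark was 29.9% at a distance of 500 bp and 3.805% at 2.5 kb.

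Acetylation was stronger at H3K4me3. The median H3K27ac score was 118 (quartiles 34.4 and 230) with H3K4me3 and 12.9 (6.10 and 37.9) with H3K4me1 only, a difference of 104.7. The upper quartile of the H3K4me1-only set only just exceeded the lower quartile of the H3K4me3 set. The median was 199 where H3K4me3 lay without H3K4me1, 98.8 with both, and 6.71 with neither. Just outside the 1 kb limit the median was low but the spread was wide: it was 8.57 (quartiles 4.72 and 54.0) at 1 to 2.5 kb from H3K4me3 and 8.31 (4.78 and 23.7) at 2.5 to 5 kb. Beyond 5 kb it lay between 11.1 and 12.53 in all 5 distance classes, including the 5316 summits more than 100 kb away, and the upper quartile lay between 33.6 and 36.4. The share with H3K4me1 within 1 kb had its minimum in the same ring. It was 76.3% within 1 kb of H3K4me3, 64.5% at 1 to 2.5 kb and 68.5% at 2.5 to 5 kb, and between 82.3% and 88.1% farther out.

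The strongest H3K27ac summits were mostly at H3K4me3. It lay within 1 kb of 6.56% of H3K27ac summits in the lowest decile, 25.1% in the sixth, 52.0% in the eighth and 80.9% (79.9 to 81.8) in the highest. H3K4me1 lay within 1 kb of 71.2% in the lowest decile, 90.2% in the sixth and 63.0% in the highest. Neither mark accompanied 27.7% of the lowest decile and 4.16% of the highest. Among the 6807 summits of the highest decile, 662 (9.73%, 9.04 to 10.5) had no H3K4me3 within 10 kb, against 45.6% of all H3K27ac summits. Of these 662 strong distal summits, 574 (86.7%) had H3K4me1 within 1 kb. Among H3K27ac summits of any score, that share was 84.1% to 88.1% in the distance classes beyond 10 kb. None of the 6807 was without H3K4me1 within 10 kb, which 1.26% of all H3K27ac summits were. A count of 0 of 6807 allows a share of up to 0.0441%, taken as 3 counts of the total, and its upper Wilson limit is 0.0564%.

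At distal H3K27ac summits, those without H3K4me3 within 1 kb, H3K4me1 lay nearer in the higher score groups than in the lowest. From the lowest to the highest of 5 equal score groups within this class (quintiles), H3K4me1 lay within 1 kb of 70.9%, 77.6%, 85.0%, 90.6% and 87.7%. The median distance to it was 503, 402, 289, 213 and 257 bp. In the lowest quintile, 15.9 H3K4me1 summits per 100 lay within 100 bp, 6.86 at 300 to 400 bp and 6.68 at 600 to 700 bp. In the fourth quintile, where the central count was highest, 32.4 H3K4me1 summits per 100 lay within 100 bp, 5.39 at 300 to 400 bp and 8.29 at 600 to 700 bp, so its profile had a second, smaller maximum. H3K4me1 on both sides within 2.5 kb was found at 20.1% to 22.7% of distal summits in every quintile.

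At H3K27ac summits with H3K4me3 the distance instead grew with score. The median distance to H3K4me1 was 365, 500, 660, 760 and 917 bp from the lowest to the highest quintile of their own scores. The count of H3K4me1 within 100 bp was 18.5 per 100 in the lowest quintile and 5.96 in the highest. H3K4me1 on both sides was found at 35.2% in the lowest quintile, 67.6% in the fourth and 58.7% in the highest. The scores of H3K27ac and of its nearest H3K4me1 summit were related more closely away from H3K4me3. Spearman's rho was 0.26 across 16787 pairs with H3K4me3 and 0.52 across 37954 pairs without it, a description over sites that share the same libraries.

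H3K4me1, the most numerous mark, was the one most often found alone. Of 143813 summits, 39.3% (39.0 to 39.5) had H3K27ac within 1 kb and 17.6% (17.4 to 17.8) had H3K4me3. H3K27ac without H3K4me3 accompanied 38254 (26.6%), both marks 18215 (12.7%) and H3K4me3 only 7084 (4.93%). Neither accompanied 80260 (55.8%, 55.6 to 56.1). The median H3K4me1 score was 22.4 with H3K27ac only, 19.4 with both, 14.2 with H3K4me3 only and 7.04 with neither. H3K4me1 without active marks is the textbook form of a primed or poised enhancer, and these summits had the lowest median score of the 4 classes. Not all of them lay far from the other marks: at a distance of 2.5 kb the share with neither was 42.4%. It was 48.9% with scores of at least 10 and 43.4% with lists of equal length.

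Acetylation followed H3K4me1 strength without a plateau. H3K27ac lay within 1 kb of 11.2% of H3K4me1 summits in the lowest decile of score, 30.4% in the fifth, 52.1% in the seventh and 74.8% (74.1 to 75.5) in the highest. H3K4me3 lay within 1 kb of 6.08% in the lowest decile, 24.6% in each of the seventh, eighth and ninth, and 28.3% in the highest. By distance to H3K27ac, the median H3K4me1 score was 21.3 within 1 kb, 13.9 at 1 to 2.5 kb and 6.77 at 2.5 to 5 kb. It lay between 6.05 and 6.66 in all classes farther out. The share of H3K4me1 summits with H3K4me3 had a minimum of 4.43% at 5 to 10 kb from H3K27ac and was 14.4% for the 3368 summits more than 100 kb from it.

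Summits far from both other marks were few for H3K27ac and many for H3K4me1. No other mark lay within 10 kb of 462 H3K27ac summits (0.679%), 30804 H3K4me1 summits (21.4%) and 1214 H3K4me3 summits (4.21%). These isolated summits were weak, with median scores of 6.81, 6.50 and 14.2. Their counts were made on the full lists, of 68069, 143813 and 28850 summits, and not with lists of equal length. The strongest isolated H3K27ac summit, at chr15:67369178, had a score of 175 and lay 10440 bp from an H3K4me3 summit scoring 571. The strongest isolated H3K4me1 summit, at chr1:234680652, had a score of 98.6 and lay 19585 bp from H3K27ac. Both were chosen after their values were seen.

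Strong summits counted as lone were mostly not remote. Of the 300 highest-scoring H3K27ac summits with neither H3K4 mark within 1 kb, 271 (90.3%) had one within 2.5 kb and none was more than 10 kb from both. For H3K4me1 the counts were 229 (76.3%) and 3, and for H3K4me3 they were 277 (92.3%) and 1. Of all summits with neither mark within 1 kb, 5.69% for H3K27ac, 38.4% for H3K4me1 and 41.9% for H3K4me3 had none within 10 kb. A distance of 2.5 kb in place of 1 kb lowered the share of all H3K27ac summits with neither mark from 11.9% to 3.805%. For H3K4me1 that share fell from 55.8% to 42.4%. Peak widths are not in the files, so whether the peaks themselves overlapped was not tested.

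The 8 highest-scoring H3K27ac summits were not uniform. Of these, 6 had H3K4me3 and 5 had H3K4me1 within 1 kb, and in the whole highest decile the shares were 80.9% and 63.0%. The first, at chr6:44010512, scored 602.563 and had H3K4me1 53 bp away with a score of 109.9 and H3K4me3 150 bp away with a score of 20.4, near the lower quartile of H3K4me3. The second, at chr6:32937364, scored 599 and had H3K4me3 3295 bp away and a weak H3K4me1 summit, scoring 3.75, at 87 bp. The third, at chr5:148784893, scored 598 with H3K4me1 276 bp away, at a score of 123, and H3K4me3 1742 bp away. The fourth and the fifth, at chr9:123639238 and chr1:8938494, had strong H3K4me3 summits at 31 and 29 bp, scoring 574 and 673. The sixth, at chr7:139366658, had H3K4me3 at 36 bp with a score of only 13.1, and the eighth, at chr17:71288118, at 76 bp with a score of 61.7. The seventh, at chr17:1012921, had H3K4me3 at 775 bp with a score of 591.

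The strongest 1% of H3K27ac lay mostly at H3K4me3. Of these 681 summits, with scores of at least 425, 547 (80.3%, 77.2 to 83.1) had H3K4me3 within 1 kb, against 32.3% of all H3K27ac summits. In 199 of the 547, or 36.4%, the nearest H3K4me3 summit scored under 100. That share was close to the 35.3% of all 21993 H3K27ac summits with H3K4me3, and 46.4% of all H3K4me3 summits scored under 100. The median score of the H3K4me3 partners was 443. A further 93 (13.7%) had H3K4me1 only and 41 had neither mark.

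The 5 strongest H3K27ac summits far from H3K4me3 had H3K4me1 close by. In the highest quintile of distal H3K27ac score the median distance to H3K4me1 was 257 bp. There, 30.9 H3K4me1 summits per 100 lay within 100 bp. That quintile is an unlike set, as its scores begin at 46.5 and it lacks H3K4me3 within 1 kb only. The 5 highest-scoring H3K27ac summits with no H3K4me3 within 10 kb scored from 520 to 583, and H3K4me1 lay 17 to 84 bp from each, with scores of 52.4 to 156. Of these positions, which were picked after their values were seen, the first, at chr2:224561119, lay 29085 bp from H3K4me3. The third, at chr20:33893145, had an H3K4me1 summit of 156 at 44 bp and also headed the ranking of loci with H3K27ac and H3K4me1 only. The fourth, at chr10:127751674, lay 117650 bp from the nearest H3K4me3 summit, which scored 7.61.

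Among the 8 highest-scoring H3K4me3 summits, 7 had H3K27ac and 6 had H3K4me1 within 1 kb. In the whole highest decile of H3K4me3 score the shares were 94.3% and 57.9%. The first pair, at chr6:32143705 and chr14:102829554, shared the score of 731.369. At the second of these H3K27ac lay 21 bp away with a score of 235 and H3K4me1 629 bp away with a score of 11.7. At the first, H3K27ac lay 1598 bp away. The 3 further ones on chromosome 17, at positions 78234929, 79670645 and 39845361, had H3K27ac at 11, 590 and 6 bp, and the 3 on chromosome 1, at 19811771, 29213886 and 1167127, at 61, 94 and 55 bp. The nearest H3K4me1 summit lay between 629 and 1357 bp from each of the 8, with scores of 11.7 to 38.5.

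The 8 highest-scoring H3K4me1 summits stood in mixed surroundings. Their scores were 182 to 201, and 3 had H3K27ac and 4 had H3K4me3 within 1 kb. In the whole highest decile of H3K4me1 score the shares were 74.8% and 28.3%. Of the 8, 3 lay on chromosome 8 and 4 on chromosome 12, which held 5925 and 7292 of the 143813 H3K4me1 summits. At chr12:53301397, with a score of 182, H3K27ac lay 1 bp and H3K4me3 2 bp away, at scores of 351 and 77.1. At chr12:58285102, with a score of 195, they lay 2025 and 1892 bp away, and at chr12:58230273, with a score of 193, they lay 1392 and 986 bp away. At chr12:51776440, with a score of 191, H3K27ac lay 7936 bp away with a score of 15.7, and at chr20:30424685, with a score of 190, it lay 5602 bp away with a score of 417.

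The strongest 1% of H3K4me1, 1438 summits scoring at least 84.1, lay in 567 of 2754 windows of 1 Mb. The 10 windows with most of them held 171 (11.9%) of these summits and 0.739% of all H3K4me1 summits. The windows were picked for that count, which is therefore a description. In chr12:58000001-59000000, 24 of 84 H3K4me1 summits (28.6%) were among them, and in chr1:201000001-202000000, 24 of 153. The median H3K27ac score of the 10 windows lay between 12.7 and 71.2, on both sides of the 20.9 of all H3K27ac summits. Read counts and copy number were not analysed here, and their part in these windows was not tested.

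Chaining summits of any mark within 1 kb gave 141443 loci, of which 83351 (58.9%) carried a single mark. H3K4me1 alone made up 73641 loci (52.1%), H3K27ac with H3K4me1 32769 (23.2%), and all 3 marks 16746 (11.8%). H3K27ac alone made up 6919 (4.89%), H3K4me1 with H3K4me3 4443 (3.14%), H3K27ac with H3K4me3 4134 (2.92%) and H3K4me3 alone 2791 (1.97%). The best H3K27ac summit of a locus had a median score of 211 with H3K4me3, 113 with all 3 marks, 15.8 with H3K4me1 and 7.22 alone. The best H3K4me3 summit had a median of 505 with H3K27ac, 320 with all 3 marks, 37.6 with H3K4me1 and 16.9 alone. Loci with all 3 marks had a median length of 886 bp between their outer summits, against 342 bp for H3K27ac with H3K4me1 and 55 bp for H3K27ac with H3K4me3.

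Loci of each combination were ranked by the mark that ranked worst in its own list. Among loci with all 3 marks, chr5:179245578-179248164 ranked first, with scores of 388 for H3K27ac, 108 for H3K4me1 and 643 for H3K4me3 over 2587 bp and 4 summits. The next were chr12:48212615-48214941 and chr6:33175101-33176948, each with 2 H3K4me1 summits and 1 of each other mark. H3K27ac with H3K4me3 was led by chr17:39845355-39845361, where H3K27ac scored 579 and H3K4me3 726 within 7 bp and H3K4me1 lay 1351 bp away. After it came chr17:7476410-7476479 and chr6:86352218-86352363, with H3K4me1 1526 and 2794 bp away. H3K27ac with H3K4me1 was led by chr20:33893101-33893145, chr12:52542105-52542114 and chr5:148784893-148785169, of which the last 2 had H3K4me3 1324 and 1731 bp away.

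H3K4me1 with H3K4me3 and no acetylation was led by chr12:122231286-122232689, with scores of 75.4 and 579 and H3K27ac 6530 bp away. The others were chr11:65380570-65381459 and chr16:67281141-67282037, with H3K27ac 1321 and 6262 bp away. The best loci with H3K27ac or H3K4me3 alone had partners within 2.5 kb. H3K27ac alone was led by chr22:46466283, scoring 550, with H3K4me3 1897 bp away at a score of 579, followed by chr15:90754427 and chr12:6642881. The last of these, scoring 545, lay 1231 bp from chr12:6644112, the second of the H3K4me3 loci, which scored 687. The other H3K4me3 loci, chr17:62503321 and chr17:38474732, had H3K27ac 1379 and 1390 bp away. The first 3 loci with H3K4me1 alone were chr12:58285102, chr12:51776440 and chr20:30424685, described above.

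Summits of the same mark rarely followed each other within 1 kb. Single summits made up 89.98% of the 61511 chains of H3K27ac, 92.7% of the 133355 of H3K4me1 and 98.1% of the 28293 of H3K4me3. The longest chains held 5, 5 and 4 summits. The first of H3K27ac, at chr12:125033284-125036025, had 5 summits over 2742 bp and a highest score of 28.9, with 1 H3K4me1 and 0 H3K4me3 summits inside. The first of H3K4me1, at chr1:228755753-228758374, had a highest score of 7.78. The first of H3K4me3, at chr9:70971455-70973348, had 4 summits, a highest score of 88.5 and 1 H3K27ac summit inside.

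Over larger distances H3K27ac gathered into dense regions, in which a smaller share of its summits had H3K4me3. Chaining H3K27ac within 12500 bp gave 30704 regions. The 15896 regions of 1 summit had H3K4me3 within 1 kb in 45.8% and neither H3K4 mark in 4.47%. The 484 regions of 10 or more summits held 6532 summits and had a median length of 51023 bp. Of their summits 21.2% had H3K4me3 and 24.9% had neither mark, against 32.3% and 11.9% of all H3K27ac summits. In the 10 regions with most summits, 340 in all, 12.4% had H3K4me3 and 39.4% neither. These 10 regions, which were picked for their H3K27ac count, nonetheless held 47 H3K4me3 summits in 1.29 Mb, or 36.5 per Mb, against 9.51 per Mb over all chromosomes.

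The densest region, chr6:155308434-155492824, held 45 H3K27ac summits over 184391 bp with a median score of 8.17 and a maximum of 437. It contained 48 H3K4me1 and 4 H3K4me3 summits, and 32 of its H3K27ac summits had H3K4me1 only. The second, chr12:66236933-66356944, held 44 H3K27ac summits, of which 26 had neither H3K4 mark and 1 had H3K4me3. Over the 10 regions the median H3K27ac score lay between 6.37 and 22.3 and the maximum between 283 and 535. The region chr3:149310855-149380227 was the most one-sided: 24 of its 31 H3K27ac summits had neither mark, 6 H3K4me1 summits lay inside, and its scores had a median of 6.37 and a maximum of 501. The region chr19:2489260-2634590 had the most H3K4me3 among the 10, with H3K4me3 at 12 of its 30 summits. The other 6 were chr1:94033460-94167854, chr17:75304801-75445733, chr10:33552611-33666122, chr10:79240375-79373507, chr12:123509767-123635962 and chr1:214578632-214699346, with 29 to 35 H3K27ac summits and 2 to 5 of them with H3K4me3.

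Chromosomes differed in composition, chromosome 19 most of all. On it 56.5% (54.4 to 58.5) of H3K27ac summits had H3K4me3 within 1 kb, against 27.5% (25.4 to 29.7) on chromosome 13, the lowest. H3K4me3 numbered 26.9 per Mb on chromosome 19 and 5.64 per Mb on chromosome 13, measured up to the last summit. There were 2.43 H3K4me1 summits per H3K4me3 summit on chromosome 19, against 4.98 over all chromosomes. H3K4me1 with neither other mark made up 37.0% (35.5 to 38.6) of H3K4me1 on chromosome 19 and 62.2% (61.1 to 63.2) on chromosome 5. The share of H3K4me3 with H3K27ac varied less, from 68.1% on chromosome 4 to 78.7% on chromosome 16.

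**Figure D5:**
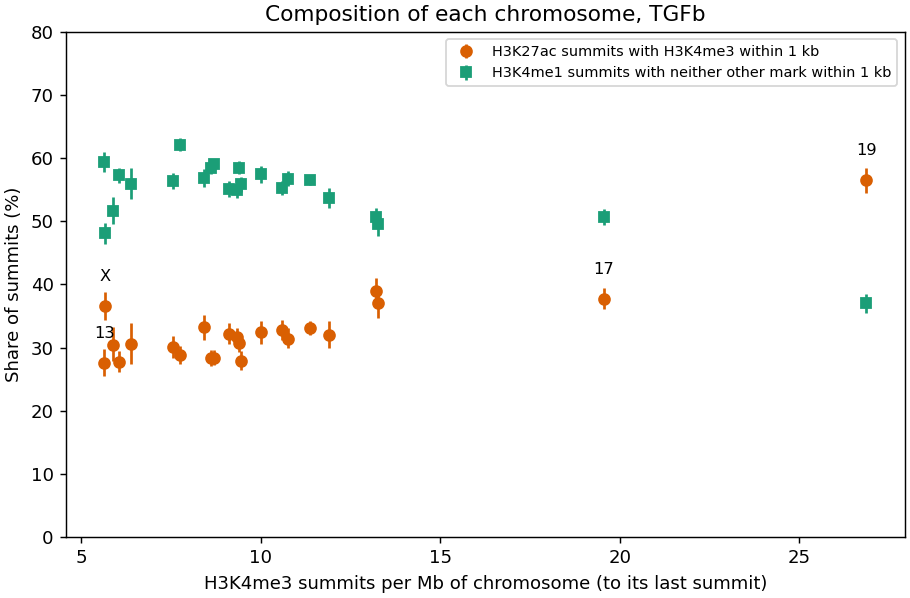
Share of summits (%) against H3K4me3 summits per Mb, with 1 point per chromosome and Wilson 95% intervals as bars: H3K27ac summits with H3K4me3 within 1 kb (circles, 4 chromosomes named) and H3K4me1 summits with neither other mark (squares). Chromosome 19 stands apart in both, at 56.5% and 37.0%.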

How the data were processed

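Cells were crosslinked with formaldehyde and immunoprecipitated with an Active Motif antibody for H3K27ac, an Abcam one for H3K4me1 and a Millipore one for H3K4me3, per the labels' protocols. Bowtie2, SAMtools, deepTools and the hg19 build are named in the submitters' processing notes. For the peak caller, its control and its options, the sources used here name nothing, and input libraries were not analysed here. Each deposited file lists summits 1 bp wide, called in 1 library per the peak names. The deposited score was taken to be a −log10 significance, since the lowest, 1.30259, lies just above 1.30103, the −log10 of 0.05. Whether a p-value or a q-value underlies it was not settled. Higher depth raises it.

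The analysis was limited to chromosomes 1 to 22 and X, leaving out 49, 30 and 39 for H3K27ac, H3K4me1 and H3K4me3. Nearest distances, counts in bins of 500 and 100 bp, flanks within 2.5 kb, chains within 1 kb and 12500 bp and windows of 1 Mb were computed with Python 3.11.15, numpy 2.4.6, pandas 2.3.3 and scipy 1.17.1, and plotted with matplotlib 3.10.9. Score deciles, quartiles and quintiles were cut within a list. The distance and combination functions were tested on simulated data with known answers. Shares have Wilson 95% intervals, and medians have quartiles. With 1 library per mark no test was run. Named loci were the 8 highest-scoring summits per mark, the 3 highest-ranked loci per combination (ranked by the worst of the within-list ranks of its marks), the 5 longest chains per mark and the 10 H3K27ac regions with most summits; loci named outside this rule are said to be chosen after their values were seen. The members and lists were chosen with earlier results of these data known. The available reference tables are of a build other than hg19, so no coordinate was converted, no sequence is shown, and the lists of lung, TGF-β and other cell type genes were not tested. Alternatives were distances of 500 bp and 2.5 kb, flanks of 5 kb, lists of equal length, scores of at least 10 and chained summits counted once.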

Additional observations from a re-analysis of the deposited data

How the results depend on the processing

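No paired analysis was possible because each mark has 1 library. Of 42 alternative values, 36 moved beyond the counting interval and 6 did not. The 10 alternative score differences kept their sign; shares and distances cannot change sign. With lists of equal length H3K4me3 was near most H3K27ac summits, and H3K4me1 only was no longer the largest class of H3K27ac. H3K4me1 with neither mark was no longer the majority with equal lengths (43.4%), at 2.5 kb (42.4%) or with scores of at least 10 (48.9%). With equal lengths the H3K4me3 list keeps all its 28850 summits. The share of H3K27ac with H3K4me3 therefore changed only through the H3K27ac summits kept. The cause of the other changes was not tested.

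The share of H3K27ac summits with H3K4me3 was 32.3% as reported, 27.1% at 500 bp, 36.9% at 2.5 kb, 39.2% with scores of at least 10, 57.9% with lists of equal length and 33.9% with chained summits counted once. In the same order of settings, H3K27ac with H3K4me1 and without H3K4me3 was 55.8%, 43.0%, 59.3%, 49.8%, 27.5% and 54.4%. H3K27ac with neither mark was 11.9%, 29.9%, 3.805%, 10.98%, 14.7% and 11.8%. H3K4me3 with H3K27ac was 73.5%, 63.6%, 78.6%, 72.0%, 58.3% and 73.5%. H3K4me1 with neither mark was 55.8%, 71.8%, 42.4%, 48.9%, 43.4% and 55.8%. The median H3K27ac score with H3K4me3 minus that with H3K4me1 only was 104.7, 103.8, 89.2, 107.8, 79.4 and 111.7. The median H3K4me3 score with H3K27ac minus that without it was 334.6, 336.8, 307.7, 405.7, 428.1 and 346.9. The median distance from H3K4me3 to H3K27ac was 166 bp, 151 bp with scores of at least 10, 525 bp with lists of equal length and 169 bp with chained summits counted once. H3K4me3 with H3K4me1 on both sides was 45.3%, and 59.9% with flanks of 5 kb, 32.6%, 5.75% and 40.7% under the last 3 settings.

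Depth is unknown for all 3 libraries, and its part in the number of weak summits was not tested. Shares that use the full lists describe these lists.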

Other observations

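At the scale of 1 Mb the 3 marks were abundant in the same places. Over 2754 windows, Spearman's rho between summit counts was 0.96 for H3K27ac and H3K4me1, 0.87 for H3K27ac and H3K4me3 and 0.85 for H3K4me1 and H3K4me3. Over the 2067 windows with 20 or more H3K4me1 summits, rho between the median scores of the same pairs was 0.24, 0.33 and 0.13. These are descriptions over windows that share libraries and mappable sequence. The windows named next were picked after their values were seen. The window with most H3K27ac, chr22:46000001-47000000, held 117 H3K27ac, 167 H3K4me1 and 33 H3K4me3 summits. The next, chr3:149000001-150000000, held 101, 111 and 19, and contains the dense region with 24 of 31 H3K27ac summits apart from both H3K4 marks. No H3K27ac summit lay in 131 windows. Of these, chr12:103000001-104000000 held the most H3K4me1, with 11 summits of a median score of 6.94, beside 4 H3K4me3 summits with a median of 94.4.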
